A study of Caenorhabditis elegans with 34 samples.

Results

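The step from mid to late adult life in Caenorhabditis elegans was described by comparing whole-body RNA of day 10 with that of day 7. The samples were chosen by the day in their label. They are 6 of the 34 samples of an ageing time series, with 3 populations at each age. All animals carried spe-9(hc88), a temperature-sensitive allele that blocks fertilization, and were kept at 25°C on NGM plates with E. coli OP50 after synchronization by hypochlorite treatment, with day 0 set at the first food. Day 7 and day 10 differ in age by design, and the sequencing batch of each library is not given in the sources used here, so that batch and age cannot be told apart. Each library holds the pooled RNA of one plate of animals, so that a lower number of cells of a type and less RNA per cell cannot be told apart.

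By these ages the hermaphrodite has ended its fertile period, and its gut, cuticle and gonad are in decline. Animals of this age are known to accumulate damaged and aggregated protein, against which heat shock factor induces the small HSP-16 chaperones and inducible members of the Hsp70 family. The intestine is at once the site of digestion, fat storage, yolk production and defence against ingested bacteria, and many of its products are secreted lysozymes, lectins and lipid-binding proteins. The hermaphrodite gonad keeps germ cells in mitosis and meiosis beside oocytes, and its RNA makes up a large share of a whole-animal library.

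Total counts were 21831421 to 23506102 in the day 7 libraries and 20030800 to 20690512 in the day 10 libraries. Of 20222 genes in the table, 13865 were detected. A gene had to reach 5 counts in 75% of the 31 libraries that span days 2 to 12. Levels are given as normalised read counts (CPM, the count scaled to library size) and differences as log2 fold changes with their standard error (SE), positive where day 10 was higher. A gene was taken to differ when its adjusted p was under 0.01. The median log2 fold change of all detected genes was -0.02. Markers of intestine, muscle, pharynx, neurons, hypodermis, gonad and germline were present at both ages, and none of the markers of the 10 cell types checked passed the test. The markers spe-9 and peel-1 of sperm, ceh-22 of pharynx, bli-1 and rol-6 of hypodermis, and med-1, tbx-35 and dpy-13 of embryos or larvae were not detected. The relation between level and annotated transcript length differed among the libraries. It lay close in day 7 replicate 3 (-0.0172) and day 10 replicate 3 (-0.00371). The slope of a library's log2 deviation on log2 transcript length lay between -0.127 and -0.0172 in the day 7 libraries and between -0.00371 and 0.0991 in those of day 10, and its part in the results was not tested beyond the values without this trend given below.

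Few genes passed the threshold between day 10 and day 7. Of the 13865 genes tested, 21 differed (0.151%), 10 with higher levels on day 10 (0.0721%) and 11 with lower levels (0.0793%). The genes that rose were chaperone and histone genes together with nhr-17, a nuclear hormone receptor gene, and K04H4.5. Among the genes that fell were a cytochrome P450, a transsulfuration enzyme, an aquaporin, a lipid-binding protein and a C-type lectin. At an adjusted p under 0.05 the count was 100 (0.721%), with 37 higher (0.267%) and 63 lower (0.454%). Without adjustment, 2072 genes (14.9%) had a p under 0.05. In 2220 genes (16%) the 3 day 10 values lay above all 3 day 7 values, and in 1706 genes (12.3%) they lay below them. The count of 21 depended on every library. It was 1 without day 7 replicate 1, 7 without day 7 replicate 2, 2 without day 7 replicate 3, 1 without day 10 replicate 1, 2 without day 10 replicate 2 and 12 without day 10 replicate 3. All 21 genes kept their direction in each of these fits, and hsp-70 passed the threshold in every one. DESeq2 called 128 genes, among them all 21. The fit of days 7 and 10 alone called 33 genes and kept 11 of the 21.

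**Figure D1:**
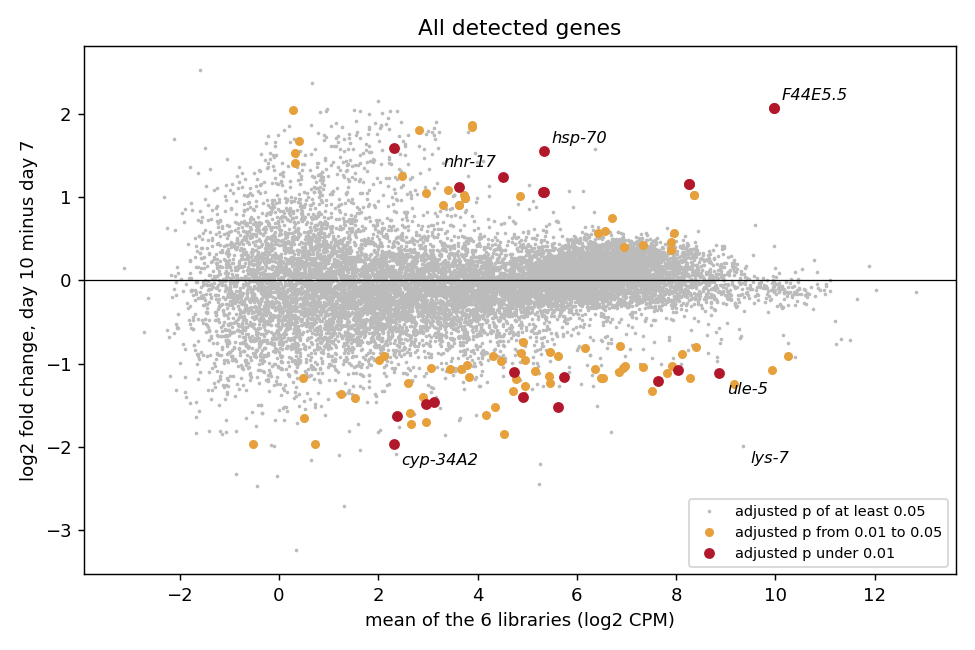
Each point is 1 of 13865 detected genes, with the mean of the 6 libraries (log2 CPM) on the x axis and the log2 fold change of day 10 against day 7 on the y axis. Red points are the 21 genes with an adjusted p under 0.01 and orange points those from 0.01 to 0.05, while lys-7, named at the lower right, had a large difference and did not pass.

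Inducible chaperone genes made up the leading group among those that rose. F44E5.4 and F44E5.5, neighbouring genes of the Hsp70 family on opposite strands of chromosome II (WBcel235, 11757107 to 11759311 and 11759662 to 11761861), had almost equal counts in each library. F44E5.5 was at 416, 292 and 455.97 CPM in the day 7 libraries and at 2017, 1532 and 1346 CPM in the day 10 libraries. Every day 10 value was above every day 7 value. The log2 fold change was 2.07 ± 0.34 (SE, adjusted p = 0.0047), a 4.20-fold difference. Reads of these near-identical genes may be shared by the counting, so the pair is best read as 1 signal.

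The hsp-70 gene, an inducible cytosolic Hsp70, was lower in level and the most even of the group. It was at 22.6, 18.1 and 20.8 CPM on day 7 and at 59.2, 64.4 and 56.9 CPM on day 10. These groups lay far apart, with a log2 fold change of 1.55 ± 0.20 (adjusted p = 0.00063). With any 1 library left out, the log2 fold change stayed between 1.47 and 1.63 and the adjusted p reached at most 0.0095.

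The small heat shock gene hsp-16.1, on chromosome V, was at 195, 186 and 184 CPM on day 7 and at 490, 393 and 385 CPM on day 10. All 3 later values were higher, and the log2 fold change was 1.17 ± 0.20 (adjusted p = 0.0056). Its near-identical copy hsp-16.11 gave nearly the same values (log2 fold change 1.16), and reads may be shared within this pair as well. The copies hsp-16.48 and hsp-16.49 had a log2 fold change of 1.03 and an adjusted p of 0.011. For hsp-16.41 it was 0.82 (adjusted p = 0.089). For hsp-16.2, the gene whose promoter drives a widely used stress reporter, the values were 58.8, 61.4 and 68.6 CPM on day 7 and 99.4, 82.4 and 97.3 CPM on day 10. They did not overlap, yet the log2 fold change of 0.56 ± 0.19 did not pass the test (adjusted p = 0.17). Of the 9 detected genes of the inducible chaperone list, 5 rose, 7 had an adjusted p under 0.05, and in all 9 the day 10 values were above those of day 7, with a median log2 fold change of 1.16. Among all detected genes 16% were higher without overlap. At least 3 pairs among the 9 are near-identical copies, so the list holds fewer than 9 separate signals.

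Other stress responses gave no calls. No member of the lists of the unfolded protein response of the endoplasmic reticulum (22 detected genes, median log2 fold change -0.05) or of mitochondria (11 genes, 0.05) passed at 0.01 or at 0.05, and 1 gene in each list had an unadjusted p under 0.05 (14.9% of all detected genes did). The reporter genes hsp-4 and hsp-6, which encode the Hsp70 proteins of these compartments, had log2 fold changes of 0.18 (adjusted p = 0.66) and 0.10 (adjusted p = 0.91). The other small heat shock proteins, 8 genes, had a median of -0.28. Among 18 antioxidant genes none differed at 0.01, and the catalase gene ctl-2 had a log2 fold change of -0.86 with an adjusted p of 0.049. Of these, 7 were lower and 3 higher without overlap (12.3% and 16% of all detected genes), with a median of -0.195, or -0.016 without the trend on transcript length. None of 37 glutathione S-transferase genes was called at either threshold. Among them 10 were lower and none higher without overlap, and the median was -0.28, or -0.12 without that trend. The superoxide dismutase gene sod-3 stood at -0.09 (adjusted p = 0.93), gst-4 at -0.27 (adjusted p = 0.73) and the metallothionein gene mtl-1 at 0.89 (adjusted p = 0.41).

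**Figure D2:**
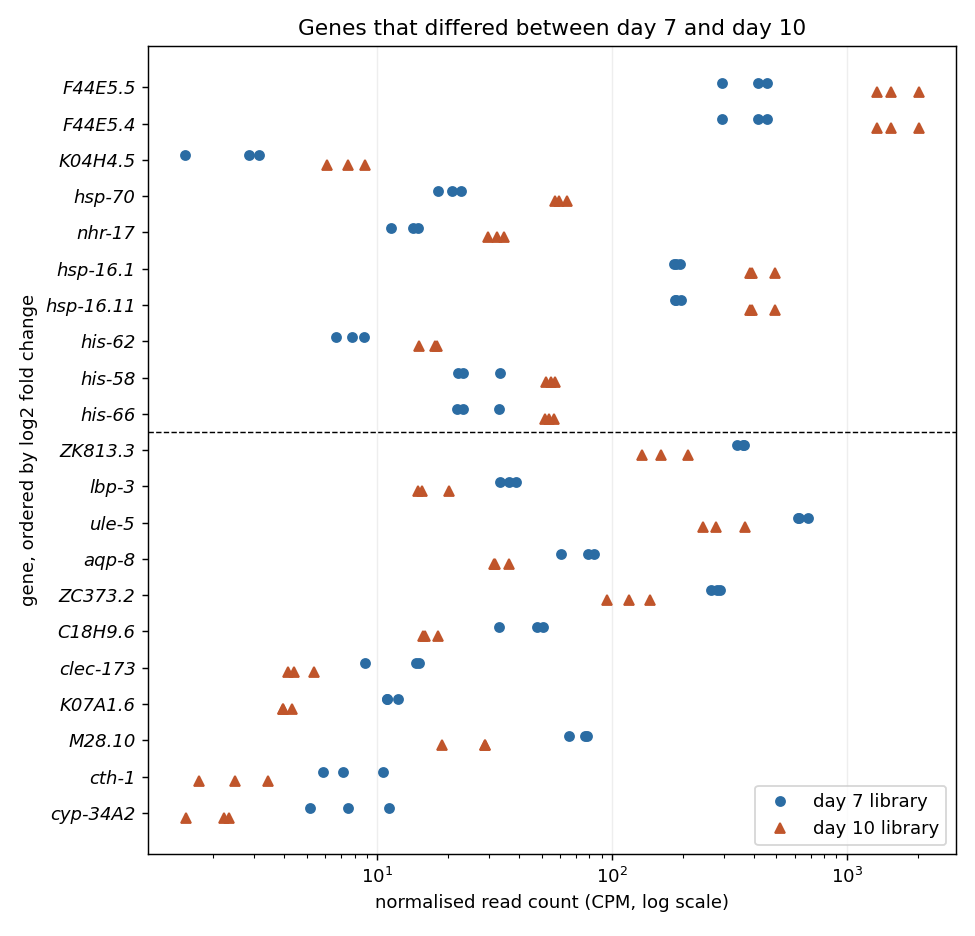
Normalised read counts (CPM, log scale) in each of the 3 day 7 libraries (blue circles) and the 3 day 10 libraries (orange triangles) for the 21 genes that differed, ordered by log2 fold change from F44E5.5 at the top to cyp-34A2 at the bottom. The dashed line separates the 10 genes that were higher on day 10 from the 11 that were lower, and no gene has overlapping groups.

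Among the genes that rose, 3 histone genes formed the other group. The histone H2B gene his-62 was at 7.78, 8.81 and 6.68 CPM on day 7 and at 17.6, 18.02 and 15.1 CPM on day 10. Its day 10 values were about as close to each other as those of day 7, and the log2 fold change was 1.12 ± 0.19 (adjusted p = 0.0056). The H2B gene his-58 was at 23.1, 33.2 and 22.1 CPM on day 7 and at 57.1, 54.7 and 52.4 CPM on day 10, with a log2 fold change of 1.07 ± 0.18 (adjusted p = 0.0056). Its copy his-66 gave 1.06 with the same adjusted p, and their reads may be shared. Of 79 detected histone genes, 3 rose, 11 had an adjusted p under 0.05 with higher levels on day 10, and none was lower at either threshold. Among the 11, his-11, his-44 and his-15 had almost equal levels, as did his-43 and his-12, so they hold fewer than 11 separate signals. In 32 the day 10 values lay wholly above those of day 7 (16% of all detected genes) and in 5 wholly below (12.3%), with a median log2 fold change of 0.27. The 79 genes summed to 4123, 4741 and 4007 CPM on day 7 and to 4664, 3829 and 4337 CPM on day 10, which overlap. Once the trend on transcript length was removed, 12 histone genes were called and the median was 0.50. Most replication-dependent histone mRNAs end in a stem-loop without a poly(A) tail, and these libraries were enriched for poly(A) RNA, so that these counts reflect the part of histone RNA that passed this step.

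The remaining genes that rose were nhr-17 and K04H4.5. The receptor gene nhr-17, on chromosome X, was at 14.9, 11.5 and 14.2 CPM on day 7 and at 32.2, 29.7 and 34.5 CPM on day 10, a log2 fold change of 1.25 ± 0.18 (adjusted p = 0.0022). Both groups were narrow. It was the single member of 186 detected nuclear hormone receptor genes that passed at either threshold. K04H4.5 was at 2.83, 3.13 and 1.52 CPM on day 7 and at 6.12, 8.90 and 7.52 CPM on day 10 (log2 fold change 1.59 ± 0.29, adjusted p = 0.0093), a difference measured at a mean of 116 counts per library.

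The genes that fell were led by cyp-34A2, a cytochrome P450 gene. It was at 7.48, 5.19 and 11.2 CPM on day 7 and at 2.34, 2.23 and 1.54 CPM on day 10. The groups did not overlap, and day 7 was the more variable of them. The log2 fold change was -1.97 ± 0.30 (adjusted p = 0.0038), a 3.91-fold decrease. It was the one member of 54 detected P450 genes to pass.

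The metabolic gene cth-1, for cystathionine gamma-lyase of the transsulfuration pathway, was at 10.6, 5.85 and 7.18 CPM on day 7 and at 2.48, 1.75 and 3.43 CPM on day 10 (log2 fold change -1.63 ± 0.28, adjusted p = 0.0056). The other 18 detected genes of the methionine cycle and phosphocholine list did not pass. The aquaporin gene aqp-8 was at 78.6, 83.5 and 60.4 CPM on day 7 and at 31.7, 31.4 and 36.2 CPM on day 10 (log2 fold change -1.16 ± 0.19, adjusted p = 0.0047). The fatty acid-binding protein gene lbp-3 was at 33.3, 36.4 and 39.0 CPM on day 7 and at 15.5, 14.9 and 20.1 CPM on day 10 (log2 fold change -1.11 ± 0.20, adjusted p = 0.0090). In both genes all day 10 values were lower.

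The most abundant gene that fell was ule-5, named for its expression in the uterine lumen. It was at 615, 622 and 678 CPM on day 7 and at 277, 244 and 366 CPM on day 10, a log2 fold change of -1.11 ± 0.19 (adjusted p = 0.0056). The C-type lectin gene clec-173 was at 14.6, 8.89 and 15.1 CPM on day 7 and at 4.44, 5.37 and 4.18 CPM on day 10 (log2 fold change -1.46 ± 0.24, adjusted p = 0.0047). The other genes that fell bear only a sequence name. The log2 fold change was -1.53 for M28.10, -1.48 for K07A1.6, -1.40 for C18H9.6, -1.21 for ZC373.2 and -1.08 for ZK813.3, the last of which lay outside the naming rule and is given to complete the 11. Of the 11 genes that fell, 5 lie on chromosome X, which holds 14.4% of the detected genes. At an adjusted p under 0.05 it held 12 of the 63 lower genes. The genes of chromosome X had a median log2 fold change of -0.12. The median transcript length was 635 bases in these 11 genes, 1037 bases in the 10 that rose and 1371 bases in all detected genes. Without the trend on length, ZC373.2 and clec-173 no longer passed the threshold.

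The daily samples in between showed how these differences arose. In all 21 genes the mean levels of days 7, 8, 9 and 10 followed each other in steady order, as they did in 25.7% of all detected genes. The 21 were chosen by their difference between days 7 and 10, so this share is not a like baseline. Day 8 has 2 libraries, which could lie apart. They were at 399 and 648 CPM for ule-5, with a day 7 mean of 638 CPM, and at 13.35 and 22.9 CPM for nhr-17. The mean of hsp-70 was 20.5 CPM on day 7, 27.97 CPM on day 8, 40.8 CPM on day 9 and 60.2 CPM on day 10, and it stood at 66.1 CPM on day 12. That of nhr-17 was 13.5, 18.1, 27.2 and 32.1 CPM on these days and continued to 51.2 CPM on day 12. The mean of F44E5.5 had reached 1632 CPM by day 10 and was at 1486 and 1511 CPM on days 11 and 12. Among the genes that fell, cyp-34A2 went from 7.96 CPM on day 7 to 5.90, 3.90 and 2.03 CPM and ended at 1.89 CPM on day 12. Its day 4 mean had been 21.7 CPM.

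**Figure D3:**
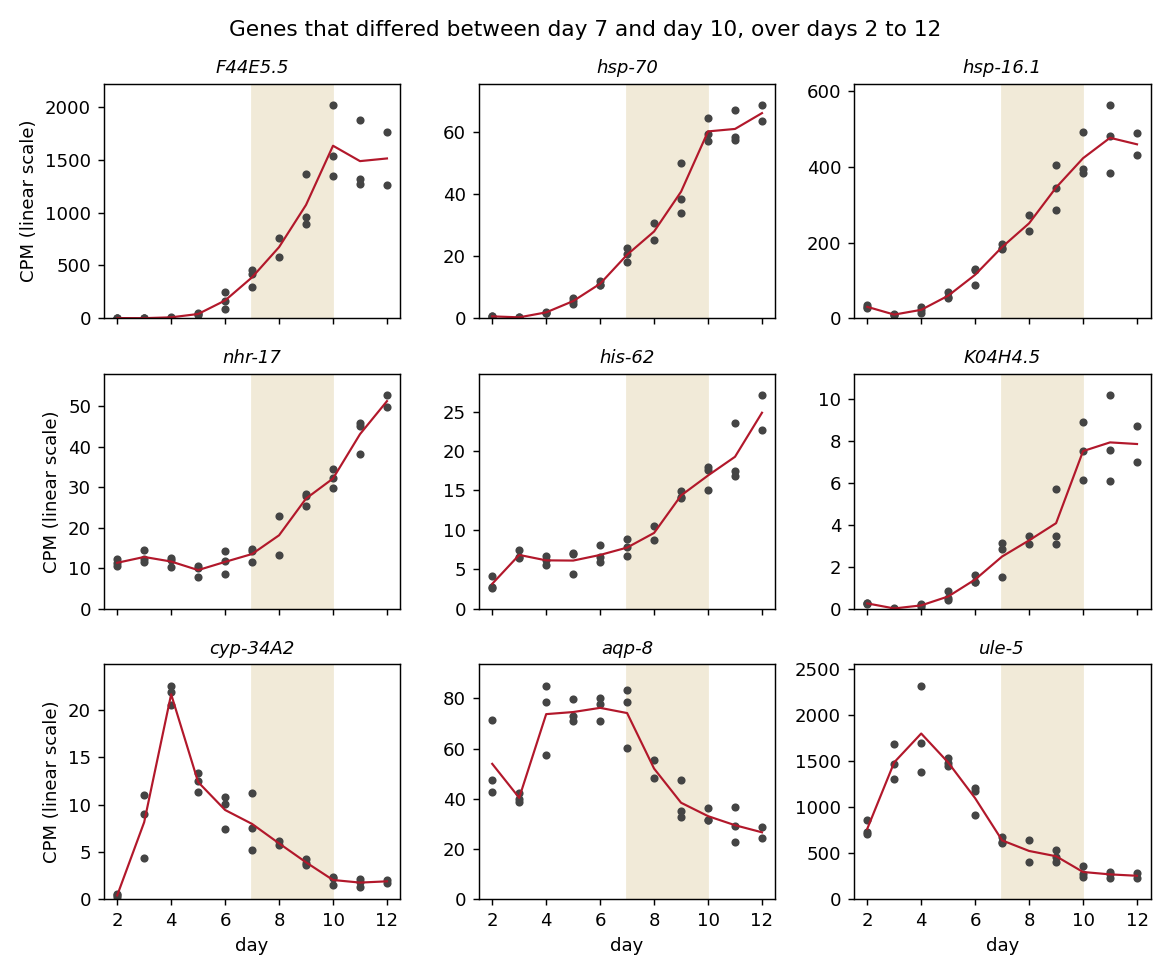
Normalised read counts (CPM, linear scale) of 9 of the 21 genes over days 2 to 12, with a point for each library and a red line through the daily means. The shaded span marks days 7 to 10, over which F44E5.5, hsp-70, hsp-16.1, nhr-17, his-62 and K04H4.5 climbed and cyp-34A2, aqp-8 and ule-5 declined from day to day.

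To see whether other libraries show the same differences, days 11 and 12 were compared with days 8 and 9, a step of the same length. The 6 libraries of days 7 and 10 do not enter this contrast, though they share its estimate of the spread, and the fit of days 8, 9, 11 and 12 alone called 15 genes at 0.01. At an adjusted p under 0.05, 749 genes were higher later (5.4%) and 821 were lower (5.92%). All 10 genes that rose by day 10 were among the 749, of which they are 1.34%, and all 11 that fell were among the 821, of which they are also 1.34%. At 0.01 the later comparison called 149 genes (1.07%), of which 64 were higher (0.462%) and 85 lower (0.613%), and these held 6 of the 10 and 10 of the 11. The log2 fold changes there were 1.08 for nhr-17, 0.91 for hsp-70, 0.90 for his-62, -1.39 for cyp-34A2 and -1.26 for clec-173. Of all detected genes, 72.7% had the same sign in both steps. The 149 also rested on single libraries. The count was 628 and 1 without day 8 replicate 1 and 2, 15 and 23 without day 9 replicate 2 and 3, 80, 11 and 85 without day 11 replicate 1, 2 and 3, 2 without day 12 replicate 1 and 91 without the other day 12 library. The intervals overlap in age, so that a steady course gives both differences.

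The step from day 3 to day 6 was compared as the same span earlier in life, and the difference between the changes was tested. Between days 3 and 6, 4215 genes differed (30.4%), of which 2401 rose (17.3%) and 1814 fell (13.1%), against the 10 and 11 of days 7 to 10. The change differed between the intervals in 1822 genes (13.1%), 502 with a later change above the earlier one (3.62%) and 1320 with one below it (9.52%). Of the 21 genes, 15 were among them. The 21 were chosen by their change from day 7 to day 10, which is part of this test, so the 13.1% is not a like baseline. On the log2 scale the chaperone genes had risen far more in the earlier interval, which began at low levels. The hsp-70 mean went from 0.34 to 11.2 CPM over days 3 to 6 and from 20.5 to 60.2 CPM over days 7 to 10. For F44E5.5 these steps were from 2.15 to 169 CPM and from 388 to 1632 CPM. In CPM the later rise was the larger for both, but not for hsp-16.2 (1.99 to 46.3 and 62.9 to 93.1 CPM). The log2 fold change of hsp-70 was 5.04 ± 0.29 from day 3 to day 6, and the later change minus the earlier one was -3.49 ± 0.36. For F44E5.5 the log2 fold change from day 3 to day 6 was 6.29 ± 0.43, and the difference was -4.22 ± 0.51. All 9 inducible chaperone genes rose in the earlier interval, with a median of 4.54, and in all 9 the later log2 change was smaller by the test of the difference. The gene nhr-17 did not pass in the earlier interval (log2 fold change -0.14, adjusted p = 0.55), and its later change was higher by 1.39 ± 0.25. The same held for his-62, with an earlier value of -0.0025 and a difference of 1.12 ± 0.27. The aquaporin gene aqp-8 rose from day 3 to day 6 by 0.92 ± 0.19 on the log2 scale, before it fell. None of the 11 genes that fell by day 10 was called as lower on day 6 than on day 3 at 0.01, although ZK813.3 (log2 fold change -0.61, adjusted p = 0.012) and ZC373.2 (-0.57, adjusted p = 0.030) had an adjusted p under 0.05 there, and ule-5 stood at -0.44 (adjusted p = 0.064). This step misses falls from a peak on day 4 or 5. The K07A1.6 mean was 38.6 CPM on day 5, 11.4 CPM on day 7 and 4.09 CPM on day 10. For ule-5 it was 1798 CPM on day 4, 638 CPM on day 7 and 295.5 CPM on day 10. Not all did so, as C18H9.6 went from 32.1 CPM on day 5 to 43.8 CPM on day 7.

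**Figure D4:**
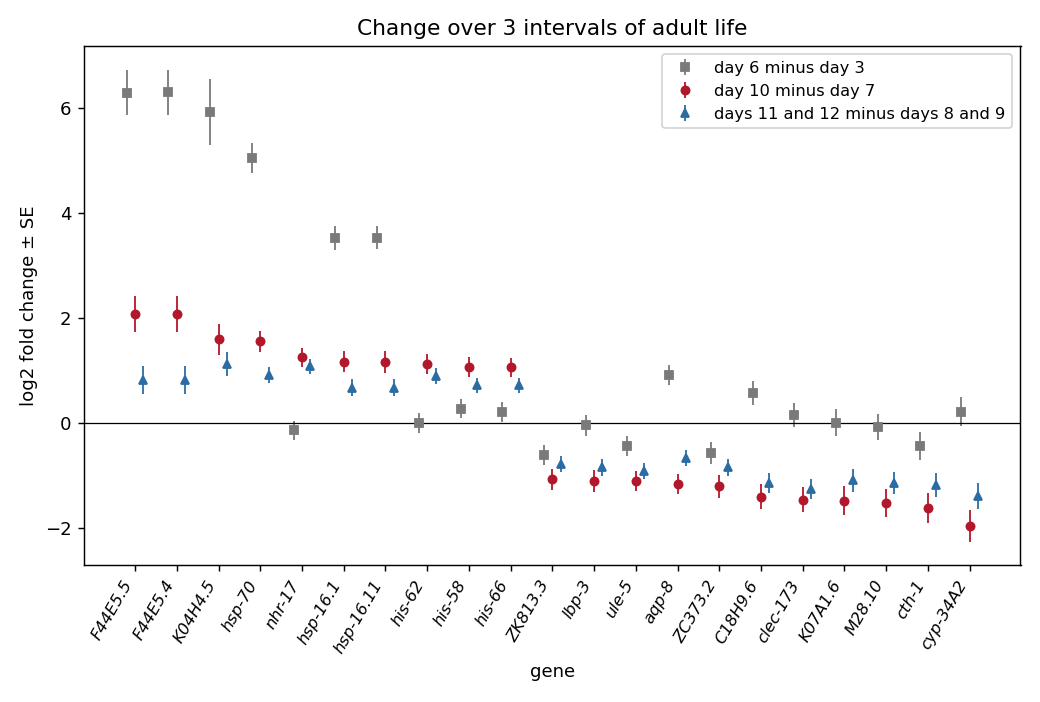
Log2 fold change ± SE of the 21 genes over the step from day 3 to day 6 (grey squares), from day 7 to day 10 (red circles) and from days 8 and 9 to days 11 and 12 (blue triangles). The chaperone genes on the left reach 6.29 in the earliest step, while nhr-17 and his-62 lie near 0 there and above 1 from day 7 to day 10.

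Families of defence proteins, many of them secreted, had negative medians and few single calls. Examples from here on that lie outside the naming rule were chosen after their values were seen. Among all detected genes 12.3% were lower and 16% higher without overlap, and 14.9% had an unadjusted p under 0.05. Lysozymes cut the cell wall of bacteria. Of 13 detected lysozyme genes none passed, 3 had an unadjusted p under 0.05, 6 had day 10 values wholly below those of day 7, and the median log2 fold change was -0.79. The intestinal lysozyme gene lys-7 was at 989, 868 and 1262 CPM on day 7 and at 197, 258 and 328 CPM on day 10. The groups lay wide apart, at a log2 fold change of -1.99 ± 0.54, and the adjusted p was 0.089. This SE also takes in the spread of other days. The standard deviation of lys-7 was 553 CPM at a mean of 561 CPM on day 3, against 202 CPM on day 7 and 65.9 CPM on day 10. Without day 7 replicate 3 the median of the lysozyme list was -0.30.

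Among 51 antimicrobial peptide and saposin genes, 48 had a negative log2 fold change, 20 did not overlap and were lower (12.3% of all detected genes were), and the median was -0.62. The saposin-like gene spp-1 was at 59.8, 58.3 and 68.4 CPM on day 7 and at 22.99, 22.3 and 34.1 CPM on day 10, with an adjusted p of 0.024. The epidermal peptide gene nlp-29 had a log2 fold change of -0.81 (adjusted p = 0.21). In the infection response list of 18 genes the median was -0.72, or -0.303 without day 7 replicate 3, with dod-3 at -1.62 (adjusted p = 0.021) and dod-19 at -1.04 (adjusted p = 0.031). Of 95 C-type lectin genes, 73 had negative values, 25 were lower without overlap and clec-173 fell, while the median was -0.37, or -0.19 without day 7 replicate 3. The transthyretin-related family, small secreted proteins, had 24 of 46 genes lower without overlap and a median of -0.52, and ttr-16, ttr-24 and ttr-25 had an adjusted p under 0.05. Without the trend on transcript length, the medians were -0.65 for lysozymes, -0.41 for antimicrobial genes and -0.33 for the transthyretin-related genes.

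**Figure D5:**
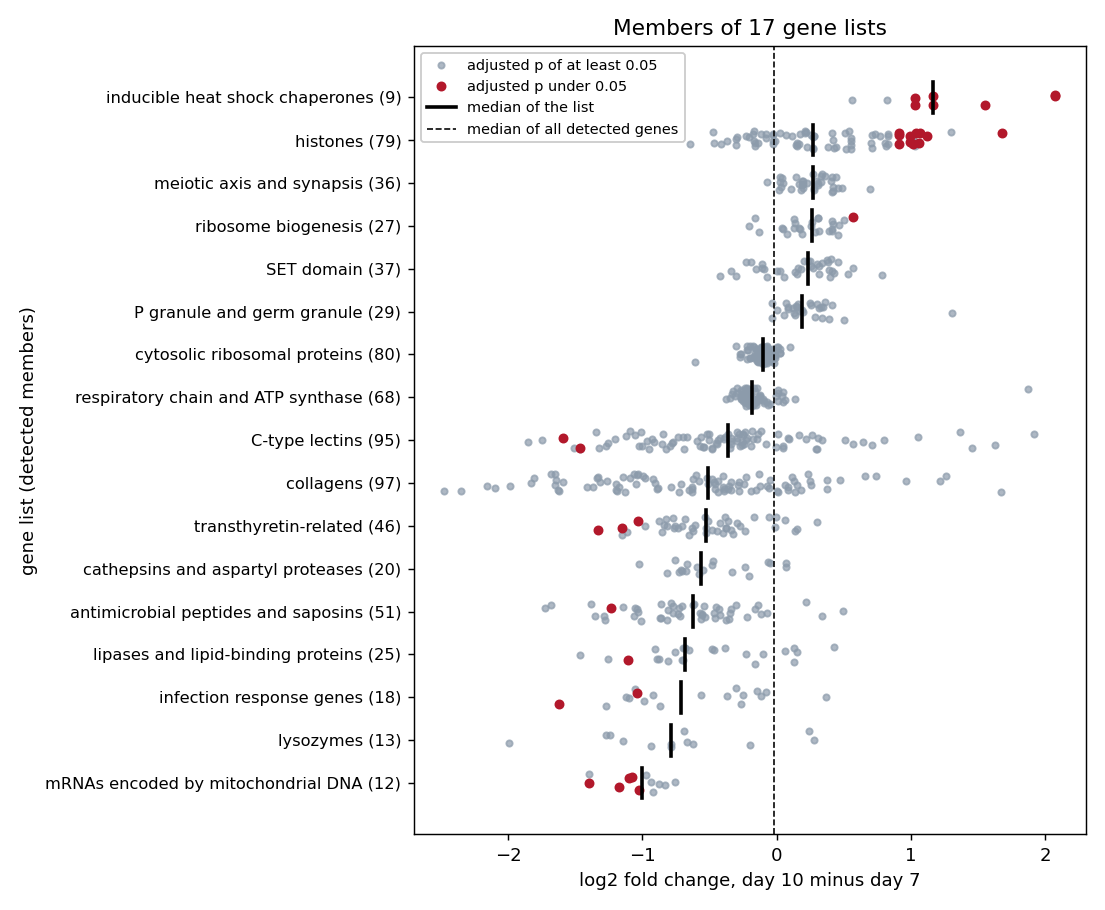
Log2 fold change of day 10 against day 7 for each detected member of 17 gene lists, with the number of members in parentheses, the median of each list as a black bar and the median of all detected genes as a dashed line. Red points have an adjusted p under 0.05, and the medians run from 1.16 for inducible chaperones to -0.999 for the mRNAs encoded by mitochondrial DNA.

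Lipid genes varied by family. For comparison, 12.3% of all detected genes were lower without overlap. Of 25 genes for lipases and lipid-binding proteins, lbp-3 fell, 10 were lower without overlap and the median was -0.68, or -0.54 without the length trend and -0.39 without day 7 replicate 3. The 19 desaturase and elongase genes had a median of -0.197, or -0.09 without the length trend and -0.08 without day 7 replicate 3. Of these, 15 had negative and 4 positive values, and 6 were lower without overlap. The desaturase gene fat-3 was at 122.3, 79.3 and 133 CPM on day 7 and at 59.0, 48.7 and 52.7 CPM on day 10 (adjusted p = 0.029). For the desaturase gene fat-7 the log2 fold change was -1.42 (adjusted p = 0.21), measured at 48.3 counts per library. The peroxisomal genes daf-22 and acox-1.1, which shorten the side chains of ascaroside pheromones, had log2 fold changes of -0.88 (adjusted p = 0.034) and -0.97 (adjusted p = 0.013). The abundant fatty acid- and retinol-binding protein gene far-2 was at 1393, 1732 and 1666 CPM on day 7 and at 771, 671 and 1118 CPM on day 10 (adjusted p = 0.045). The yolk protein genes vit-2 and vit-6 varied widely between libraries. For vit-2 the values were 2855, 2392 and 5618 CPM on day 7 and 3052, 1763 and 1801 CPM on day 10, which overlap (adjusted p = 0.63). The 6 vitellogenin genes, 3 with positive and 3 with negative values, had a median of -0.19, which was 0.63 without day 7 replicate 3 and 0.09 without day 10 replicate 3. Of the 20 cathepsin and aspartyl protease genes none passed, 3 had an unadjusted p under 0.05, a share near that of all genes (14.9%), and the median was -0.56, or -0.23 without day 7 replicate 3.

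Within the insulin pathway, the receptor gene daf-2 and the transcription factor gene daf-16 had log2 fold changes of 0.35 (adjusted p = 0.67) and 0.36 (adjusted p = 0.54). In both, all day 10 values lay above those of day 7. Of the 13 core genes of the receptor pathway none passed, and 6 were higher and 2 lower without overlap (16% and 12.3% of all detected genes). Their median was 0.18, or 0.02 without the trend on transcript length. The insulin-like peptide gene ins-7, whose product acts as an agonist of the receptor, was at 30.8, 27.2 and 32.8 CPM on day 7 and at 10.2, 8.77 and 12.8 CPM on day 10. Its log2 fold change of -1.52 ± 0.30 had an adjusted p of 0.013, after a rise of 2.695 on the log2 scale between days 3 and 6. The other 27 detected insulin-like genes did not reach an adjusted p under 0.05. The intestinal GATA factor gene elt-2 was at 8.88, 6.79 and 9.14 CPM on day 7 and at 4.77, 4.97 and 6.25 CPM on day 10, without overlap and with an adjusted p of 0.28. Intestinal markers as a list summed to 2416 to 5691 CPM on day 7 and to 2193 to 3571 CPM on day 10, with none called, and their part in the values of gut genes was not tested. The 16 genes of the intestinal brush border and junctions had a median of -0.13, with 1 higher and 2 lower without overlap. Among all detected genes these shares were 16% and 12.3%, the latter near that of this list.

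Collagen genes, which encode the cuticle, were lower in most cases and uneven. Of 97 detected genes in this list, which also holds the prolyl hydroxylase gene dpy-18, none passed at either threshold, 25 had an unadjusted p under 0.05, 38 were lower without overlap, 4 were higher without overlap and the median was -0.51. Among all detected genes 14.9% had an unadjusted p under 0.05, 12.3% were lower without overlap and 16% were higher. The adult collagen gene col-19 was at 12.6, 23.6 and 27.3 CPM on day 7 and at 21.5, 7.59 and 12.2 CPM on day 10. These groups overlap. The muscle myosin gene unc-54 had a log2 fold change of -0.13 (adjusted p = 0.93), and of the 37 genes of the contractile apparatus none was called and 3 had an unadjusted p under 0.05.

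All 12 mRNAs encoded by mitochondrial DNA were lower on day 10 in every library. This list was added after the values had been seen. The share of counts on mitochondrial genes was 0.593% to 0.644% in the day 7 libraries and 0.281% to 0.408% in the day 10 libraries. COX3, for a subunit of cytochrome c oxidase, was at 1258, 1399 and 1308 CPM on day 7 and at 549, 543 and 787 CPM on day 10, a log2 fold change of -1.08 ± 0.26 (adjusted p = 0.049). ND1, for a subunit of complex I, was at 310, 350 and 311 CPM on day 7 and at 143, 143 and 191 CPM on day 10 (log2 fold change -1.02 ± 0.22, adjusted p = 0.028). No mitochondrial mRNA passed at 0.01, while ND1, ND2, ND3, ND6 and COX3 had an adjusted p under 0.05. The median of the 12 was -0.999, and it ranged from -1.17 to -0.92 with any 1 library left out. In the later comparison 11 of the 12 were lower at 0.05, while ND4L, at a mean of 6.7 counts per library, had a log2 fold change of 0.10. From day 3 to day 6 the median of the 12 was -0.91, with 8 lower at 0.01. No member had a change that differed between these intervals of days 3 to 6 and days 7 to 10 at 0.01. The 68 nuclear genes of the respiratory chain and ATP synthase had a median of -0.19, with no call at either threshold and 1 unadjusted p under 0.05 (14.9% of all detected genes), and without the length trend this median was -0.02. As the libraries were enriched for poly(A) RNA, a difference in the tails of mitochondrial mRNAs and one in their amount cannot be told apart.

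The lists for germline and growth differed among themselves. Among all detected genes 16% were higher and 12.3% lower without overlap, and 14.9% had an unadjusted p under 0.05. Of 36 genes of the meiotic axis and synapsis, 24 were higher without overlap, none was lower without overlap and the median log2 fold change was 0.27. No member was called, and 10 had an unadjusted p under 0.05. The checkpoint kinase gene chk-2, which governs meiotic prophase, was at 15.4, 21.3 and 16.5 CPM on day 7 and at 28.7, 32.4 and 25.2 CPM on day 10 (adjusted p = 0.15). The chromosome axis gene htp-3 was at 135, 132 and 131 CPM on day 7 and at 167, 153 and 147 CPM on day 10. Of 37 SET domain genes 17 were higher and 3 lower without overlap, and of 29 germ granule genes 11 were higher and none lower. Among 27 ribosome biogenesis genes 15 were higher without overlap, the median was 0.27, and pro-1 was at 72.7, 67.4 and 68.8 CPM on day 7 and at 103.65, 102.85 and 103.1 CPM on day 10 (log2 fold change 0.57 ± 0.13, adjusted p = 0.040). Without the length trend the medians were 0.24 for meiotic genes, 0.21 for ribosome biogenesis, 0.12 for SET domain genes, where it had been 0.23, and 0.07 for germ granule genes, where it had been 0.19. The 80 cytosolic ribosomal protein genes showed no such separation, with none apart in either direction and a median of -0.10, which was 0.10 without the length trend. The yolk receptor gene rme-2 had a log2 fold change of 0.01 (adjusted p = 0.99). The median was -0.01 for 25 eggshell and yolk uptake genes, of which none was higher and 5 were lower without overlap, 0.07 for 32 replication genes, -0.05 for 36 translation initiation factors and 0.0047 for 67 mitochondrial ribosomal proteins. Marker genes of germline and oocytes summed to 9619 to 12246 CPM on day 7 and to 9003 to 11723 CPM on day 10.

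Genes for sperm proteins differed between libraries of the same age. The 70 detected major sperm protein genes summed to 417, 344 and 497 CPM on day 7 and to 282, 397 and 817 CPM on day 10. Their median log2 fold change was 1.24, yet only 1 was higher without overlap (16% of all detected genes were), and the median was 0.38 without day 10 replicate 3. The sperm markers summed to 11.6 to 15.2 CPM on day 7 and to 11.4 to 61.6 CPM on day 10, and the part of remaining sperm cells in this was not tested. Beside the list of mitochondrial mRNAs, 62 gene lists were examined. Of these, 7 held a gene that differed at 0.01, and the 62 medians ran from -0.79 to 1.24.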

How the data were processed

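RNA-seq counts of whole animals were analysed. The authors deposited raw counts per gene, made per the labels with STAR 2.7.3a and featureCounts on WBcel235. Neither the annotation nor the strand setting is given in the sources used here. RNA was enriched with oligo(dT), depleted of rRNA and copied with random hexamers. The day in each title gave the group. Nothing says that the populations were independent beyond repeated cultures, so p-values measure the spread between these samples, and counts of PCR reads are not independent molecules. An entry named transgene was kept out. Symbols were matched to 20035 of 20222 genes and positions to 20052.

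Counts of the 31 samples of days 2 to 12 were analysed with edgeR 4.0.16 (R 4.3.3) after TMM scaling (quasi-likelihood test, day as a factor, limma 3.58.1), with Benjamini-Hochberg adjustment over 13865 genes with at least 5 counts in 75% of samples. The SE is the absolute log2 fold change over the square root of F. Contrasts were day 10 minus day 7, the mean of days 11 and 12 minus that of days 8 and 9, and the difference between the changes of days 7 to 10 and of days 3 to 6. The same deposited counts were tested with DESeq2 1.42.0 as an alternative. Scripts were tested on simulated data. Libraries of the same day differed by more than sampling noise (chi-square per degree of freedom of 14.7 to 56.6).

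Named genes were the 10 with the largest change in each direction past the threshold with a mean of at least 100 counts and no overlap, up to 3 past the threshold per gene list with a mean of at least 50 counts, and vit-2, vit-6, hsp-16.2, hsp-70, hsp-4, hsp-6, sod-3, gst-4, daf-2, daf-16, unc-54, elt-2, col-19, lys-7, rme-2, mtl-1, nlp-29 and fat-7. Lists were defined by gene symbol. The comparison, the lists and the named genes were chosen with earlier results of these data known. Alternatives were the fit of days 7 and 10 alone, other scalings, DESeq2, other filters and thresholds, a replicate block, removal of the trend on transcript length, day 1 in the fit, and each library left out in turn.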

Additional observations from a re-analysis of the deposited data

Results flagged for a closer look

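For 17 named genes the change from day 7 to day 10 differed from that of day 3 to day 6 by the test of the difference itself. Most of them were named for their change from day 7 to day 10, which is part of this test. On the log2 scale the later change minus the earlier one was -4.22 for F44E5.5, -4.23 for F44E5.4, -4.34 for K04H4.5, -3.49 for hsp-70, -3.97 for hsp-16.2, -2.36 for hsp-16.1 and -2.37 for hsp-16.11, genes that had risen more on this scale in the earlier interval. On day 3 K04H4.5 had 1, 0 and 0 counts and hsp-70 had 10, 2 and 7, so their earlier changes start near the floor. The K04H4.5 mean went from 0.017 to 1.40 CPM over days 3 to 6 and from 2.49 to 7.52 CPM over days 7 to 10. It was -3.46 for lys-7, -2.18 for cyp-34A2, -2.08 for aqp-8, -1.97 for C18H9.6, -1.62 for clec-173, -1.48 for K07A1.6, -1.45 for M28.10 and -1.06 for lbp-3. It was positive for nhr-17 (1.39) and his-62 (1.12).

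The entry named transgene, which no comparison used, held 38 counts summed over the 3 day 7 libraries and 24 counts over the 3 day 10 libraries. Both are above the limit that a count of 0 allows.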

How the results depend on the processing

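Of the 21 genes, all kept their direction under every alternative, while their number followed the processing. It was 33 (11 higher, 22 lower) in the fit of days 7 and 10 alone, 28 with DESeq2 size factors, 13 (8 higher, 5 lower) with library size alone, 128 (53 higher, 75 lower) with DESeq2, 100 (37 higher, 63 lower) at a threshold of 0.05, 33 (20 lower) without a filter on low counts and 43 (28 higher) without the trend on transcript length. The fit of days 7 and 10 alone kept 11 of the 21 genes at 0.01, with an adjusted p of at most 0.047 in all. It lost cyp-34A2, cth-1, lbp-3, ZK813.3, ule-5, clec-173, his-62, his-58, his-66 and K04H4.5. With library size alone 12 of the 21 were kept, and without the length trend 19. The share of higher genes was 47.6% as reported, 61.5% with library size alone and 65.1% without the length trend. With 1 library left out, 1 to 12 genes were called, 1 to 5 higher and 0 to 7 lower. Where no lower gene was called, at least 646 lower genes had an unadjusted p under 0.05 in the edgeR fit. The cause of these shifts was not tested.

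Same-numbered samples of day 7 and day 10 did not deviate together (r of -0.13, 0.0669 and -0.00804), so the numbers were not taken as pairs. The replicate block gave 34 genes (23 lower), with all 21 kept, and 66 genes (16 higher, 50 lower) in the fit of days 7 and 10 alone, where 15 of the 21 were kept.

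The 149 genes of the later comparison became 15 in the fit of those days alone, 81 with library size alone, 932 with DESeq2, 79 without a filter, 65 with the replicate block, 896 without the length trend, 1570 at a threshold of 0.05, and 1 to 628 with 1 library left out (91 without the day 12 library of unclear number). The genes whose change differed between the intervals became 3408 at 0.05 and 2842 without the length trend, and the other alternatives stayed within 1.5 times.

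Of 629 values for single named genes under the alternatives, 16 changed sign, all in genes that did not pass. For rme-2 the log2 fold change was -0.0122 in the fit of days 7 and 10 alone, -0.0375 without a filter, -0.0084 with the replicate block, -0.14 without the length trend, -0.0151 with at least 10 counts in 3 libraries, and -0.0182 with the block on days 7 and 10 alone. It was -0.0085 for hsp-6 and 0.034 for sod-3 without the length trend. With 1 library left out it ranged from -0.091 to 0.13 for rme-2, from -0.75 to 0.19 for sod-3, from -0.83 to 0.086 for vit-6 and from -0.27 to 0.038 for unc-54. Genes near the minimum of 5 counts carry large counting error at this depth.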
